A study of Mus musculus with 58 samples.

Results

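The 35 genes of sterol and fatty acid synthesis, their regulation and sterol export were followed in mouse CD4+ T helper cells of 3 genotypes and 5 states. They were taken as a list of named genes from the 24028 genes of the count table, and all 35 passed the filter on low counts. By role they comprise 18 enzymes of sterol synthesis, 6 genes of SREBP control and sterol transport, 8 enzymes of fatty acid synthesis and desaturation, and 3 genes of cholesterol export and LXR signalling.

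The KO cells (T1792 delta/delta, CD4cre.miR-17∼92lox/lox) lack the miR-17∼92 microRNA cluster because Cre recombinase, made from the Cd4 promoter in developing T cells, removes it. In TG cells (T1792 tg/tg, CD4cre.Rosa26loxSTOPloxCAG-miR-17∼92Tg) the same Cre removes a stop cassette, so that an added copy of the cluster is transcribed from the CAG promoter in the Rosa26 locus. WT cells carry neither change and no Cre, so an effect of Cre itself and an effect of the cluster cannot be told apart in comparisons with WT cells, whereas TG and KO cells both carry Cre. Cells of each genotype were collected after 24 h or 48 h on plates with anti-CD3 at 0.5 µg/ml (weak stimulus) or 0.25 µg/ml (very weak stimulus), with anti-CD28 at 0.2 µg/ml and IL-2 at 50 U/ml, or as naive cells without stimulation. They were purified with a kit as naive CD4+ cells from lymph nodes and spleens pooled from 10 mice of both sexes; no age of the mice is stated in the labels. The 58 libraries form 15 groups, with 4 libraries in most and 3 (replicates 1, 2 and 4) for KO naive cells and for WT naive cells.

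A T cell that starts to grow and divide needs new membrane, which means new sterols and new fatty acids. Both are controlled by the SREBP transcription factors, encoded by Srebf2 and Srebf1, which are held in the endoplasmic reticulum by SCAP and the INSIG proteins while sterols are plentiful and move to the nucleus when sterols run short. LXR receptors work in the opposite sense, since they are switched on by oxidised sterols and induce the pumps that carry cholesterol out of the cell. In T cells, activation through the antigen receptor is known to favour SREBP-driven synthesis over LXR-driven export.

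The microRNAs of the cluster are shown because the 3 genotypes differ in them, and matches to their seeds are what a target search looks for. They lie within 1 transcript on the plus strand of chromosome 14 (RefSeq, GRCm38.p6), miR-17-5p at chr14:115043684-115043706 and miR-92a-3p at chr14:115044476-115044496. The 6 guide strands fall into 4 seed families; capitals mark the seed, bases 2 to 8, and the sequences run 5′ to 3′. miR-17-5p and miR-20a-5p share a seed, as do miR-19a-3p and miR-19b-3p.
miR-17-5p: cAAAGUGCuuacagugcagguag
miR-20a-5p: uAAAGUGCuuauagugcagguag
miR-18a-5p: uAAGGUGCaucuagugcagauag
miR-19a-3p: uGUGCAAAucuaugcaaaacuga
miR-19b-3p: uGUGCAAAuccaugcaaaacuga
miR-92a-3p: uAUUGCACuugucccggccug

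Of the 35 genes, 14 hold at least 1 match to 1 of these seeds in their longest annotated 3′ end (GENCODE, GRCm38), against 29.3% of 19658 genes searched the same way. Matches to the miR-17 and miR-20a seed lie in 4 of them (12.2% of genes), to the miR-18a seed in 6 (8.02%), to the miR-19 seed in 6 (11.5%) and to the miR-92a seed in 4 (6.82%). A match of these letters is a description and not evidence of a working site. Windows of 29 bases are shown for 7 of the genes whose counts differed between genotypes in the results that follow, with the match to the seed in capitals. Other genes with a match were called too, among them Stard4, Srebf2 and Scd1, and are not shown. Only 1 match is shown per gene, and Abca1, Sc5d and Abcg1 hold further ones.
Elovl6, chr3:129635990-129636018, plus strand, miR-17 and miR-20a seed: atgcttccaaaGCACTTTagtctcagtgt
Abca1, chr4:53030995-53031023, minus strand, miR-17 and miR-20a seed: cctcattccaaGCACTTTatgctgtctgt
Abcg1, chr17:31117619-31117647, plus strand, miR-19 seed: ttatctgtgatTTTGCACatgcactctcg
Sc5d, chr9:42254781-42254809, minus strand, miR-18a seed: cctatacagagGCACCTTactctctgggg
Scd2, chr19:44304852-44304880, plus strand, miR-18a seed: gtgtggtcctgGCACCTTcctcactcaga
Nr1h2, chr7:44549716-44549744, minus strand, miR-18a seed: taccacaccatGCACCTTgagtggagaga
Insig1, chr5:28077753-28077781, plus strand, miR-92a seed: ttcaacttcaaGTGCAATgtgtatgaaaa

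Promoters of 4 of the genes are shown because these genes rose together on stimulation: Hmgcs1, Idi1, Cyp51 and Fasn, each from 250 bases before to 50 bases after the gene's start (RefSeq, GRCm38.p6). Capitals mark CCAAT on either strand (ATTGG on the strand printed), the box bound by NF-Y, a factor that works with SREBP at many of its targets, and in Hmgcs1 also TCACNCCAC, a sterol regulatory element. In Fasn the box occurs on both strands in overlap, which makes the longer run CCAATTGG.
Hmgcs1, chr13:119690101-119690400, plus strand: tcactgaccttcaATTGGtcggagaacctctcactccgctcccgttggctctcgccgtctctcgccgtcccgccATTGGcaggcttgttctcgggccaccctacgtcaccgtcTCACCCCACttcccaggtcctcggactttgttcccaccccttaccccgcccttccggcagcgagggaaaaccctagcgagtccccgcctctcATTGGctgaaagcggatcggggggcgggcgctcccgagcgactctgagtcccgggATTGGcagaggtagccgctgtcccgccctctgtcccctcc
Idi1, chr13:8885356-8885655, plus strand: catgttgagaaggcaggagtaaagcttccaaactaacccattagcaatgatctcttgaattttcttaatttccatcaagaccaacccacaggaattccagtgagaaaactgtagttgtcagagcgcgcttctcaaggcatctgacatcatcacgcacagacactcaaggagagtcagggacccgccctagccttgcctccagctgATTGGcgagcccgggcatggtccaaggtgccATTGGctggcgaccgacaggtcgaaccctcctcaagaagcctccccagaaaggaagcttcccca
Cyp51, chr5:4104648-4104947, minus strand: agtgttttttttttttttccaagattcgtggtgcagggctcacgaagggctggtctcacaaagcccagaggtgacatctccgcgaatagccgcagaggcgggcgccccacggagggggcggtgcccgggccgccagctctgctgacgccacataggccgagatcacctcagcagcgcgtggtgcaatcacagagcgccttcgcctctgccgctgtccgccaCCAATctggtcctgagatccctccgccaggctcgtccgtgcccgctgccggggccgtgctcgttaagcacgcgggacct
Fasn, chr11:120824498-120824797, minus strand: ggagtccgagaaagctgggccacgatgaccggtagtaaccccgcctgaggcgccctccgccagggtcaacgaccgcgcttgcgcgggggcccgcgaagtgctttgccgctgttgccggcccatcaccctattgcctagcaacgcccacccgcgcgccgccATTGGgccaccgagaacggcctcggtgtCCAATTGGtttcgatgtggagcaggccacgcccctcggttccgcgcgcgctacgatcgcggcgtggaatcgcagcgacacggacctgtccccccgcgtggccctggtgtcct

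A promoter window was matched for 27 of the 35 genes. None was matched for Sqle, Fdps, Fdft1, Stard4, Scd1, Scd2, Fads1 and Abcg1. CCAAT stood on either strand in 20 of these 27 (74.1%), against 41.1% of 27025 genes with a window. Some genes had several windows, and 1 match sufficed. Counted by window, CCAAT stood in 21 of 35 (60%), against 37.4% of 32851. All printed promoters held it. The windows of Acat2, Acaca, Elovl6 and Fads2, which also rose 48 h after the weak stimulus, did not, nor did those of Abca1, Nr1h2 and Scap. Windows of Tm7sf2 and Insig2, which fell at 24 h, held it. TCACNCCAC stood in 1 of 27, that of Hmgcs1 (3.7%), against 1.44% of all genes. An LXR element, 2 direct half-sites spaced by 4 bases, stood in none, beside 0.0148% of all genes, so its absence from 27 genes says little. No match says only that these letters are not in this window.

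The libraries held 19.2 to 20.8 M counts each, with a coefficient of variation of 2.04%. The hairpin gene Mir19a had 0 reads in all KO libraries (16 stimulated, 3 naive), so the KO label held in this small count. TG libraries had 1 to 15 (stimulated) and 8 to 19 (naive) Mir19a reads, and WT libraries 1 to 13 and 2 to 3. Mir17 had 0 to 3 reads in KO naive, 2 to 5 in WT naive and 69 to 198 in TG naive libraries. Mir18 had 0, 3 to 4 and 111 to 191 in the same order. In stimulated libraries the TG and WT ranges overlapped, at 2 to 19 (TG) and 0 to 9 (WT) reads for Mir17. They were 4 to 27 and 0 to 9 for Mir18, and 4 to 17 and 2 to 10 for Mir20a. In stimulated KO libraries Mir17 and Mir20a reached 2 reads and Mir18 reached 1. The host gene Mir17hg had 1574 to 2803 reads in stimulated KO libraries, 390 to 1319 in stimulated TG and 353 to 1205 in stimulated WT libraries. Of 6 T cell markers 5 were in the table and none was at 0 in any group. The summed level of the 12 myeloid markers was 118 to 212 CPM (counts scaled to a common library total) in KO naive, 101 to 261 CPM in TG naive and 137 to 345 CPM in WT naive libraries, and 4.2 to 6.85 CPM in WT libraries 48 h after the weak stimulus, where 3 of the 12 were at 0. Naive groups therefore held some myeloid RNA that stimulated groups mostly lacked, and its part in the differences between stimulated and naive cells was not tested.

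In WT cells, stimulation raised almost every enzyme of sterol synthesis. Of the 35 genes, 30 rose and 3 fell 48 h after the weak stimulus, by edgeR's quasi-likelihood test at a Benjamini-Hochberg adjusted p under 0.05. Calls were also common among all genes, at 78.2% of the 13709 tested, so the count alone says little about the list. The median log2 fold change of the 35 was 1.77, against 0.02 over all genes. At 24 h 27 rose and 6 fell, with 77.4% of all genes called and medians of 0.95 and -0.09. The very weak stimulus gave 26 higher and 6 lower at 24 h, beside 76.3% of all genes, and 29 higher and 3 lower at 48 h, beside 77.7%. All 4 comparisons share the 3 WT naive libraries. In bulk samples such as these, more cells expressing a gene and more RNA per cell cannot be told apart. The 35 genes together took 0.738% ± 0.0535 of all counts in WT cells 48 h after the weak stimulus (SD, n = 4) and 0.452% ± 0.0349 at 24 h (n = 4), against 0.221% ± 0.0159 in WT naive cells (n = 3).

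**Figure D1:**
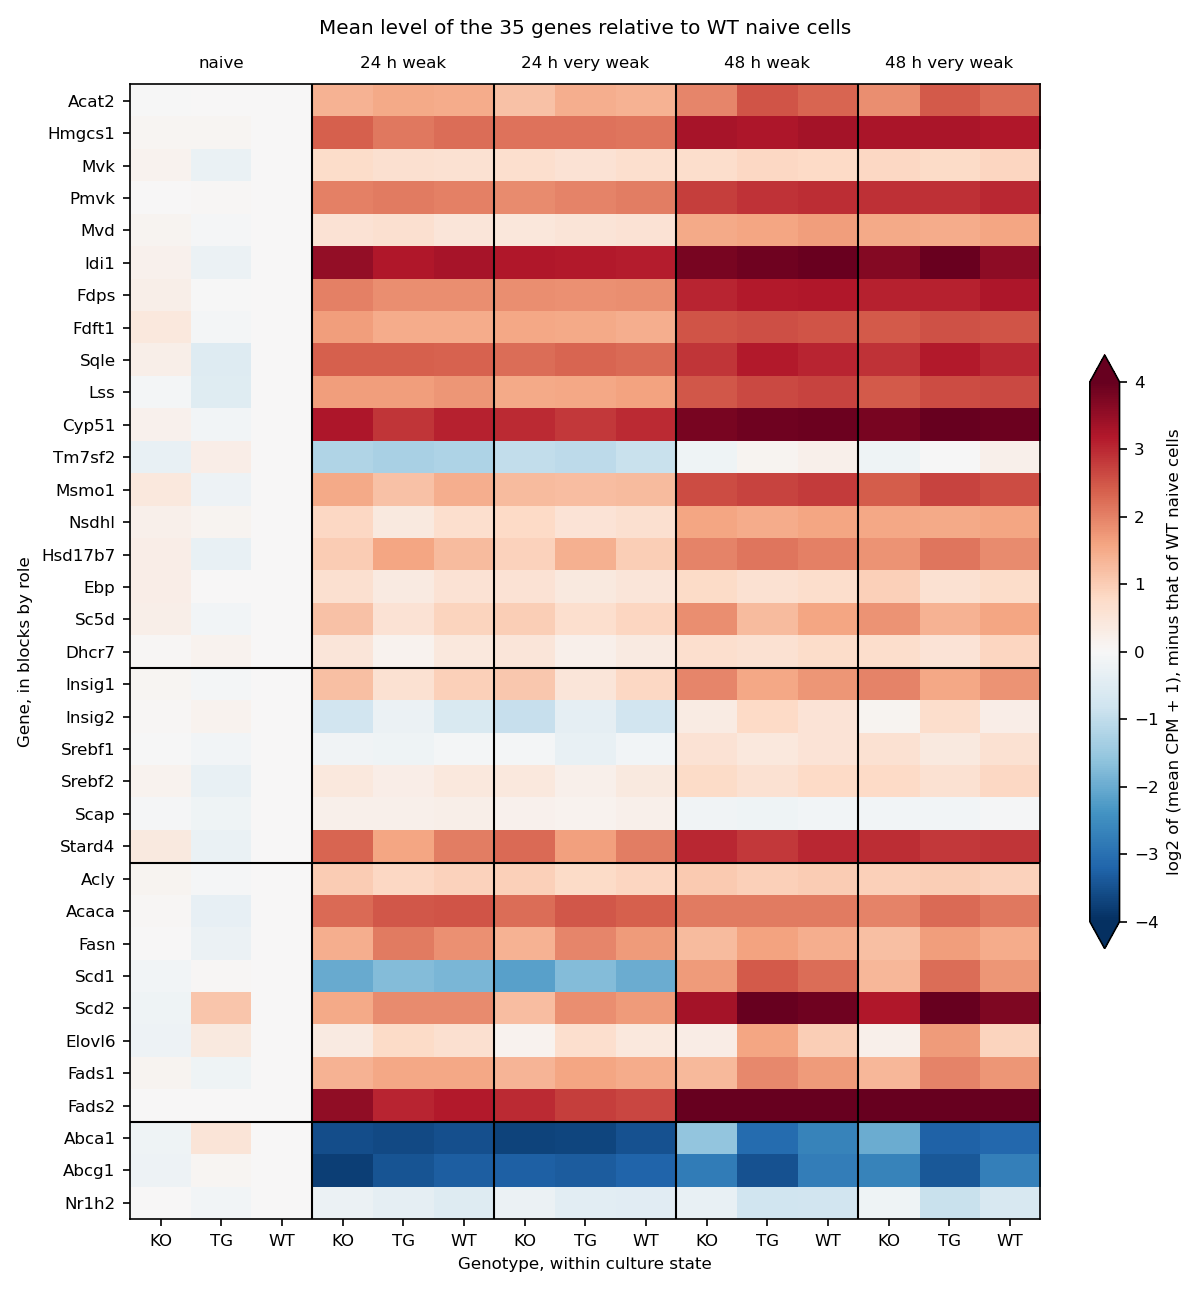
Level of each of the 35 genes (rows, in blocks by role) in the 15 groups (columns), as log2 of the group mean CPM plus 1, minus the same value in WT naive cells. Colours saturate at 4 in either direction; the sterol block is red in stimulated groups of every genotype apart from Tm7sf2, and Abca1 and Abcg1 are blue.

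Among the sterol enzymes, 17 of 18 rose in each of the 4 stimulated states. Idi1, the isomerase that makes the active isoprene unit, had 95.2, 72.8, 128 and 98.9 CPM 48 h after the weak stimulus, against 7.09, 4.45 and 4.88 CPM in WT naive cells. Cyp51, which demethylates lanosterol, had 494, 418, 572 and 551 CPM at 48 h, against 35.7, 26.2 and 36 CPM in naive cells. Hmgcs1, which makes HMG-CoA at the head of the mevalonate pathway, had 397, 372, 452 and 459 CPM at 48 h, against 44.1, 36.5 and 41.4 CPM in naive cells. For all 3 enzymes every stimulated library lay above every naive one. Their log2 fold changes at 48 h were 4.17 ± 0.26 for Idi1, 3.96 ± 0.21 for Cyp51 and 3.37 ± 0.20 for Hmgcs1 (SE), with adjusted p of 1.79e-19, 1.59e-22 and 9.01e-21 by edgeR.

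The other enzymes followed in smaller steps. Fdps and Fdft1, which make farnesyl diphosphate and squalene, rose by log2 3.25 and 2.56, and Sqle, Lss and Pmvk, which oxidise squalene, cyclise it and phosphorylate mevalonate a further time, rose by 3.10, 2.73 and 3.05. Acat2, the thiolase at the head of the pathway, rose by 2.38 and Mvd, the mevalonate decarboxylase, by 1.73. Msmo1, Nsdhl and Hsd17b7, which together strip methyl groups from the ring, rose by 2.84, 1.61 and 2.14, and Sc5d, a desaturase, by 1.62. The smallest rises at 48 h were those of Ebp (0.71), Dhcr7 (0.75) and Mvk (0.84), a sterol isomerase, the enzyme of a last reduction to cholesterol, and mevalonate kinase. Tm7sf2, a sterol reductase, was the exception. It fell at 24 h, to 3.64, 4.37, 4.41 and 5.72 CPM against 10.7, 11.6 and 13.5 CPM in naive cells, with log2 -1.39 ± 0.19 and an adjusted p of 1.06e-08 by edgeR. At 48 h it had 11.3, 16, 13 and 15.2 CPM and overlapped the naive libraries (log2 0.22, adjusted p = 0.294).

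**Figure D2:**
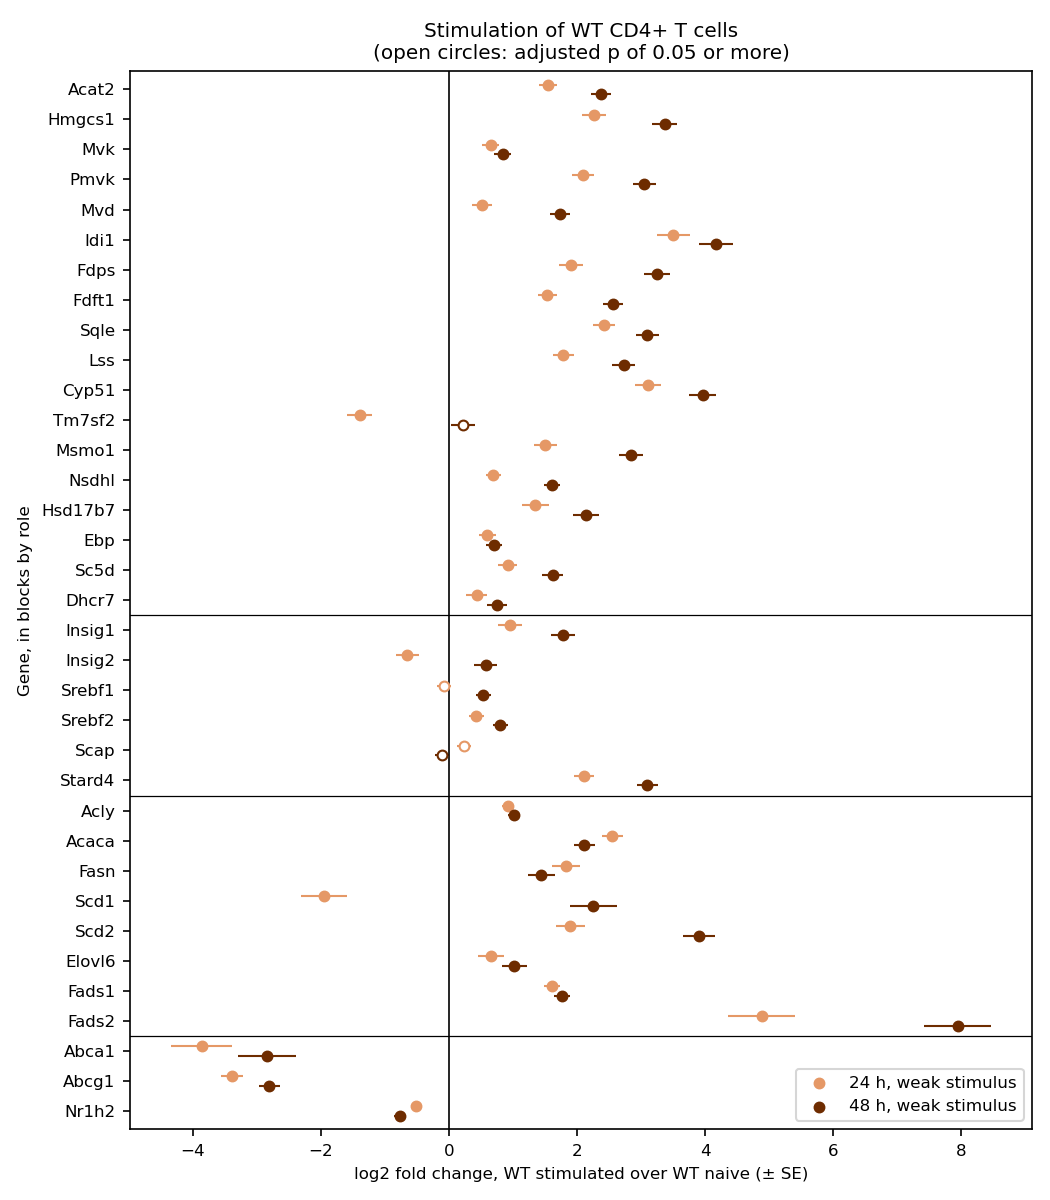
Log2 fold change (± SE) of WT cells 24 h and 48 h after the weak stimulus over WT naive cells, for each of the 35 genes in blocks by role. Filled circles passed the test. Sterol enzymes lie to the right of 0 at 48 h, and Tm7sf2, Insig2, Srebf1, Scap and Scd1 change side between the times. Of these, only Insig2 and Scd1 passed the test at both times.

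The genes that control SREBP changed less. Srebf2 rose by log2 0.43 at 24 h and 0.80 at 48 h, Srebf1 was at -0.07 (adjusted p = 0.555) and rose by 0.54, and Scap, the SREBP escort, passed the test at neither time (0.23, adjusted p = 0.0575, and -0.11, adjusted p = 0.387; edgeR). Insig1, a retention protein that is itself an SREBP target, rose at both times and reached 196, 158, 195 and 187 CPM at 48 h, against 62.2, 47.8 and 50.6 CPM in naive cells, log2 1.78. Insig2, its paralogue, fell by 0.65 at 24 h and rose by 0.58 at 48 h on the log2 scale. Stard4, a carrier of cholesterol between membranes, rose by log2 2.11 and 3.10.

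Fatty acid enzymes rose too, with a different course. Acly, which supplies acetyl-CoA, rose by log2 0.92 at 24 h and 1.02 at 48 h, and Acaca, which makes malonyl-CoA, by 2.55 and 2.12. Fasn, the synthase itself, had 1167, 984, 780 and 900 CPM at 24 h and 573, 699, 847 and 813 CPM at 48 h, against 260, 257 and 291 CPM in naive cells. Its libraries at both times lay above the naive ones, and those of the 2 times overlapped. Fads2, a desaturase of polyunsaturated fatty acids, had 14.2, 14.7, 7.53 and 8.51 CPM at 24 h and 99.1, 96.7, 74 and 105 CPM at 48 h, against 0, 0.629 and 0.474 CPM in naive cells. With a naive level under 1 CPM its fitted log2 fold changes of 4.88 ± 0.52 and 7.95 ± 0.52 rest on few reads. Scd2, a stearoyl-CoA desaturase, rose by log2 1.90 and 3.90, Elovl6, an elongase, by 0.66 and 1.02, and Fads1, a second desaturase of polyunsaturated fatty acids, by 1.61 and 1.77.

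Scd1, like Scd2 a stearoyl-CoA desaturase, moved in opposite directions at the 2 times. Its levels were 8.49, 10.4, 7.37 and 7.12 CPM at 24 h and 171, 195, 93.9 and 158 CPM at 48 h, against 25.2, 26.2 and 45.4 CPM in naive cells, so all libraries of the 3 states were apart. The log2 fold changes were -1.95 ± 0.36 and 2.26 ± 0.37, with adjusted p of 4.46e-06 and 3.92e-07 by edgeR.

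The 3 export and LXR genes fell in all 4 stimulated states. Abcg1, a pump that passes cholesterol to HDL, had 24, 25.9, 19.6 and 25.7 CPM 48 h after the weak stimulus, against 162, 164 and 174 CPM in WT naive cells. Abca1, the pump that loads apolipoproteins, had 11.4, 7.46, 3.1 and 5.6 CPM at 48 h, against 45.5, 53.3 and 49.8 CPM in naive cells. Neither gene's groups overlapped. Both pumps are also abundant in macrophages, and the myeloid markers above fell in the same comparison; their part in the fall of Abca1 and Abcg1 was not tested. Nr1h2, which encodes LXR beta, fell by log2 0.51 at 24 h and 0.77 at 48 h.

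Levels can be set side by side between genes only per length. In WT cells 48 h after the weak stimulus the highest mean levels per kilobase were those of Scd2 (297 CPM per kb), Fdps (165) and Acly (131), whereas in WT naive cells they were those of Acly (64.6 CPM per kb), Srebf2 (55.4) and Nr1h2 (51.7). Another annotated gene, Gm43738, overlaps 77.4% of the exon bases of Fdps, and Ctsb overlaps 20.9% of those of Fdft1, so the values of Fdps and Fdft1 are uncertain by reads that the neighbour may share.

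Between 24 h and 48 h, with both stimulus strengths averaged, 27 of the 35 genes were higher at 48 h and 3 lower, beside 54.6% of all genes called (median log2 0.85 for the 35, 0.01 over all genes). Scd1 differed most (log2 4.07 ± 0.26), followed by Fads2 (3.24 ± 0.23) and Scd2 (2.02 ± 0.15), with adjusted p of 1.01e-17, 2.73e-16 and 1.04e-15 by edgeR. Tm7sf2, Fdps, Msmo1 and Insig2 differed by log2 1.42, 1.36, 1.35 and 1.17. Lower at 48 h were Acaca (-0.37), Scap (-0.30) and Nr1h2 (-0.23). Acly, Mvk, Ebp, Fasn and Abca1 did not pass, with log2 values of 0.09, 0.19, 0.18, -0.29 and 0.71 (adjusted p = 0.0556 for Abca1 by edgeR).

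Counts over introns, which come largely from unspliced transcripts, rose less at 24 h than counts over exons. Among the 35 genes 14 were higher and 7 lower at 24 h after the weak stimulus, beside 60.7% of all genes with intronic counts, and 23 were higher and 4 lower at 48 h, beside 58%. Between 24 h and 48 h 24 were higher and 2 lower at 48 h, beside 33.4%. Intronic counts of Hmgcs1 differed from naive cells by log2 0.46 ± 0.32 at 24 h (adjusted p = 0.208) and by 2.21 ± 0.31 at 48 h (adjusted p = 2.1e-08), and those of Sqle by 0.25 ± 0.28 (adjusted p = 0.453) and 2.10 ± 0.28 (adjusted p = 4.54e-09), all by edgeR. At 24 h the exonic counts of both had already risen, by log2 2.27 and 2.42. The difference between exonic and intronic changes was not tested for stimulation. Scd1 introns fell at 24 h and were at log2 -0.08 at 48 h (adjusted p = 0.89).

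In WT cells the weak and the very weak stimulus were also set against each other. In the fit of all libraries none of the 35 genes was called at 24 h or at 48 h (edgeR), beside 0% of all genes in both comparisons; 1 had an unadjusted p under 0.05 at 24 h and 0 at 48 h, and DESeq2 called 0 at both times. When only the 8 libraries of the 2 groups were fitted with the replicate number as a block, a fit chosen after the data were seen, Fads2 (log2 0.53 ± 0.11, adjusted p = 0.0109) and Elovl6 (0.24 ± 0.06, adjusted p = 0.0470) were higher under the weak stimulus at 24 h, beside 3.55% of all genes. At 48 h this fit called Scd1 (0.52 ± 0.09, adjusted p = 0.00175), Idi1 (0.34 ± 0.07, adjusted p = 0.0101) and Abca1 (0.59 ± 0.16, adjusted p = 0.0353) higher, beside 6.09%. The differences that appeared within replicate numbers were thus at most log2 0.59.

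In naive cells the list took a like share of counts in each genotype, 0.223% ± 0.00345 in KO (n = 3), 0.224% ± 0.0137 in TG (n = 4) and 0.221% ± 0.0159 in WT cells (n = 3). KO naive cells differed from WT naive cells in none of the 35 genes (edgeR; 4 at an unadjusted p under 0.05, 0 by DESeq2), beside 0.0365% of all genes. TG naive cells differed in 3, beside 7.83% of all genes. Scd2 was higher, at 230, 231, 184 and 299 CPM in TG naive cells, against 99, 102 and 124 CPM in WT naive cells, with no overlap (log2 1.12 ± 0.23, adjusted p = 6.91e-04 by edgeR). Sqle was lower, at 9.95, 14.1, 9.96 and 18.9 CPM in TG naive cells, against 20.6, 14.8 and 23.1 CPM in WT naive cells. TG library 4 lay within the WT range (log2 -0.56 ± 0.16, adjusted p = 0.0261). Lss was lower, at 18.2, 23.6, 19.2 and 23.4 CPM in TG naive cells, against 30.1, 26.2 and 32.7 CPM in WT naive cells. The groups did not overlap, but with log2 -0.49 ± 0.16 the adjusted p was 0.0486, a call that was lost when any 1 of the 7 libraries was left out (adjusted p 0.054 to 0.225). The Sqle call was lost without TG naive library 1 or 3 or WT naive library 1 or 4 (adjusted p 0.0855 to 0.221).

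To compare genotypes under stimulation, the counts of the 4 stimulated states were summed for each genotype and replicate number, which gives 4 pools per genotype. KO and TG cells were set against the same 4 WT pools. In KO pools 1 of the 35 genes was higher and 5 lower than in WT pools, beside 5.93% of all genes; in TG pools 2 were higher and 3 lower, beside 13.6%. Fatty acid enzymes made up 4 of the 5 lower genes in KO pools and both higher genes in TG pools. The median log2 fold change of the 35 genes was -0.08 for KO pools and -0.05 for TG pools, against 0.01 and -0.01 over all genes. The typical gene of the list was thus near 0 in both. The share of all counts in the 35 genes had group means of 0.418% to 0.452% at 24 h. At 48 h after the very weak stimulus it was 0.631% ± 0.0579 in KO, 0.708% ± 0.0442 in WT and 0.783% ± 0.0396 in TG cells (SD, n = 4 each). After the weak stimulus it was 0.657% ± 0.0983, 0.738% ± 0.0535 and 0.783% ± 0.0513 at 48 h. Abundant genes weigh most in this share, and its differences between genotypes were not tested.

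Elovl6, which lengthens palmitate to stearate, had 35.7, 34.1, 31.3 and 34.5 CPM in KO pools 1 to 4 and 72.2, 66.6, 64.8 and 68.8 CPM in TG pools, against 51, 46.9, 47.9 and 47 CPM in WT pools. The 3 genotypes did not overlap, with KO lowest and TG highest. The log2 fold changes were -0.51 ± 0.06 for KO over WT (adjusted p = 5.84e-04) and 0.50 ± 0.06 for TG over WT (adjusted p = 3.45e-04), both by edgeR.

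Scd2 had 684, 780, 573 and 630 CPM in KO pools and 1268, 1348, 1136 and 1369 CPM in TG pools, against 914, 1076, 819 and 1052 CPM in WT pools. Again KO pools lay below all WT pools and TG pools above them. The log2 fold changes were -0.53 ± 0.11 (adjusted p = 0.0147) and 0.41 ± 0.11 (adjusted p = 0.0266) by edgeR. The TG call was lost without TG pool 1, 2 or 4 or WT pool 1 or 3 (adjusted p 0.0603 to 0.0715), whereas the KO call held without any 1 pool.

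Fasn had 619, 709, 638 and 771 CPM in KO pools and 967, 994, 916 and 980 CPM in TG pools, against 848, 862, 778 and 837 CPM in WT pools, without overlap. The KO difference passed the test (log2 -0.28 ± 0.07, adjusted p = 0.0327) and the TG difference did not (0.21 ± 0.07, adjusted p = 0.0574; edgeR). Fads1, a desaturase of polyunsaturated fatty acids, and Acat2 of the sterol pathway were lower in KO pools by log2 -0.28 ± 0.07 (adjusted p = 0.0418) and -0.31 ± 0.06 (adjusted p = 0.00952). Acat2 had 59.2, 60.6, 62.9 and 58.5 CPM in KO pools, against 75.4, 74.7, 71.6 and 77.1 CPM in WT pools, and Fads1 had 41.9, 45.4, 50.9 and 50.6 CPM in KO pools, against 51.7, 62.2, 56.5 and 58.9 CPM in WT pools. Neither gene's pools overlapped. The Fasn call was lost without KO pool 3 or WT pool 1, 2 or 4 (adjusted p 0.0544 to 0.0778), and the Fads1 call without KO pool 1 or 2 or WT pool 2, 3 or 4 (0.0628 to 0.111).

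On the export side, Nr1h2 was the gene that was higher in KO pools, at 110, 122, 116 and 118 CPM, with 94.4, 94.2, 89.5 and 82.4 CPM in TG pools, against 89, 93.3, 85.6 and 94.1 CPM in WT pools. KO pools lay above all others and TG pools overlapped WT pools (KO over WT log2 0.36 ± 0.06, adjusted p = 0.00392; TG over WT -0.01 ± 0.06, adjusted p = 0.958). Abcg1 was lower in TG pools, at 16.9, 13.3, 16.3 and 12.3 CPM against 20.8, 22.9, 17.5 and 19.8 CPM in WT pools (log2 -0.46 ± 0.12, adjusted p = 0.0239), a call lost without TG pool 2 or 4 or WT pool 1, 2 or 4 (adjusted p 0.0536 to 0.0712). Stard4 had 86.3, 72.5, 77.8 and 86.3 CPM in TG pools, against 97, 93.7, 87.7 and 101 CPM in WT pools, and Srebf2 had 402, 421, 420 and 427 CPM in TG pools, against 479, 502, 447 and 482 CPM in WT pools. Without overlap, Stard4 and Srebf2 were lower in TG pools by log2 -0.23 (adjusted p = 0.0411) and -0.19 (adjusted p = 0.0349), and each call was lost without any 1 of 6 pools. For Stard4 these were TG pools 1, 2 and 3 and WT pools 1, 2 and 4 (adjusted p 0.0518 to 0.124), and for Srebf2 they were the same 6 (0.0636 to 0.0985). The levels of Abca1 in KO pools were spread widely, at 15.1, 10.2, 4.38 and 4.21 CPM, and without a block for the replicate number did not pass the test against WT pools (log2 0.87 ± 0.40, adjusted p = 0.229).

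Pools with the same number deviated together in every genotype, so the pools were also fitted with the number as a block. That raised the counts to 3 higher and 7 lower genes in KO pools, beside 19.4% of all genes, and to 6 higher and 8 lower in TG pools, beside 29.3%. The block added Insig1 and Abca1 to the higher genes of KO pools and Tm7sf2 and Scd1 to the lower ones. In TG pools it added Sqle, Hsd17b7, Insig2 and Fasn to the higher genes and Ebp, Sc5d, Dhcr7, Insig1 and Srebf1 to the lower ones.

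**Figure D3:**
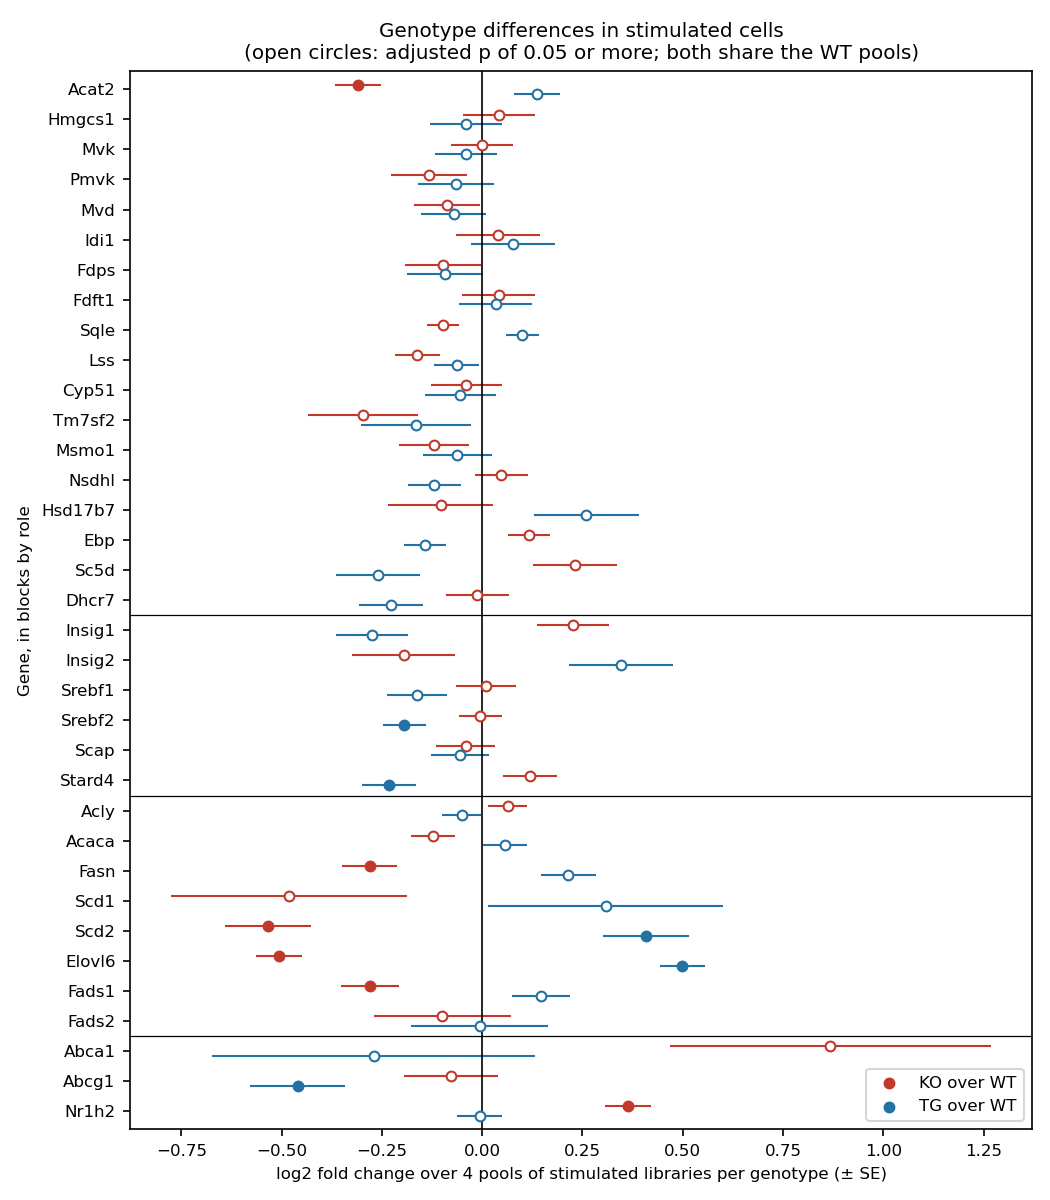
Log2 fold change (± SE) of KO pools and of TG pools over the same WT pools, for each of the 35 genes in blocks by role. Filled circles passed the test without the block; Elovl6 and Scd2 lie to the left of 0 for KO and to the right for TG, and most sterol enzymes lie near 0 for both.

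State by state, differences from WT were called mainly at 48 h. For KO cells, no member was called at 24 h after the weak stimulus (edgeR; 4 at an unadjusted p under 0.05, 1 by DESeq2; 1.4% of all genes called) or the very weak stimulus (2 at an unadjusted p under 0.05, 0 by DESeq2; 1.06%). At 48 h 1 was higher and 2 were lower after the weak stimulus, beside 5.04%, and 1 higher and 3 lower after the very weak stimulus, beside 4.63%. Nr1h2 was the higher one in both, by log2 0.48 ± 0.08 each, and Elovl6 (-0.72 ± 0.18 and -0.70 ± 0.18) and Fads1 (-0.42 ± 0.11 and -0.44 ± 0.11) were lower in both. Acat2 was lower after the very weak stimulus (-0.42 ± 0.13, adjusted p = 0.0386 by edgeR), a call that was lost without KO replicate 1, 2 or 4 or WT replicate 2 or 4 (adjusted p 0.0587 to 0.154). The Nr1h2 calls held without any 1 library, but Elovl6 and Fads1 were no longer called without KO replicate 1 in either 48 h state. Without it the adjusted p was at most 0.0799 for Elovl6 and 0.147 for Fads1. The Elovl6 call after the weak stimulus was also lost without WT replicate 3 (0.0563), and the Fads1 call without KO replicate 2 or WT replicate 2 or 4 (weak) or WT replicate 2 (very weak). In each stimulated state all 4 pairs of equal number deviated together (r 0.134 to 0.625 for KO and WT libraries), and with the number as a block more members were called in 3 of the 4 states; after the very weak stimulus at 24 h the count was still 0. At 24 h after the weak stimulus Nr1h2 was then higher (0.28, adjusted p = 0.0499 by edgeR), beside 3.18% of all genes. At 48 h 2 were higher and 3 lower after the weak stimulus, with Abca1 and Scd2 added, beside 8.7%, and 2 higher and 4 lower after the very weak stimulus, with Abca1 and Tm7sf2 added, beside 8.35%.

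For TG cells, 1 gene was lower at 24 h after the weak stimulus, Stard4 (log2 -0.48 ± 0.13, adjusted p = 0.0274 by edgeR; 4.81% of all genes), and none after the very weak stimulus (edgeR; 4 at an unadjusted p under 0.05, 0 by DESeq2; 3.73%). At 48 h 1 was higher and 1 lower after the weak stimulus, beside 9.96%, and likewise after the very weak stimulus, beside 13.3%. These were Elovl6, higher by log2 0.58 ± 0.18 and 0.81 ± 0.18, and Abcg1, lower by -0.76 ± 0.16 and -0.69 ± 0.16 (weak and very weak stimulus in turn). The Abcg1 calls and the Elovl6 call after the very weak stimulus held without any 1 library. The Elovl6 call after the weak stimulus was lost without TG replicate 2 or 4 or WT replicate 1, 2 or 4 (adjusted p 0.0563 to 0.0945), and the Stard4 call without TG replicate 2 or 3 or WT replicate 1 or 4 (0.0739 to 0.127). TG and WT libraries of equal number also deviated together in each stimulated state (r 0.132 to 0.483). With the block 1 was higher and 1 lower at 24 h after the weak stimulus, with Insig2 added, beside 8.48% of all genes. After the very weak stimulus 2 were higher (Hsd17b7 and Insig2) and 1 lower (Stard4) at 24 h, beside 6.71%. At 48 h after the very weak stimulus 3 were higher and 2 lower, with Insig2, Scd2 and Nr1h2 added, beside 18.8%.

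The single libraries show the same genes apart at 48 h. After the very weak stimulus Elovl6 had 27.2, 33, 31.3 and 39 CPM in KO libraries and 94.7, 101, 87.7 and 90.6 CPM in TG libraries, against 54.9, 47.1, 56 and 54.7 CPM in WT libraries, with no overlap. Nr1h2 had 118, 122, 123 and 119 CPM in KO libraries and 72.4, 76.1, 78.1 and 68.1 CPM in TG libraries, against 87.5, 97.3, 73.9 and 87.6 CPM in WT libraries; only WT replicate 3 lay within the TG range. Abcg1 had 17, 14, 15 and 13.4 CPM in TG libraries, against 27.6, 26.4, 18.7 and 23.1 CPM in WT libraries, again without overlap.

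**Figure D4:**
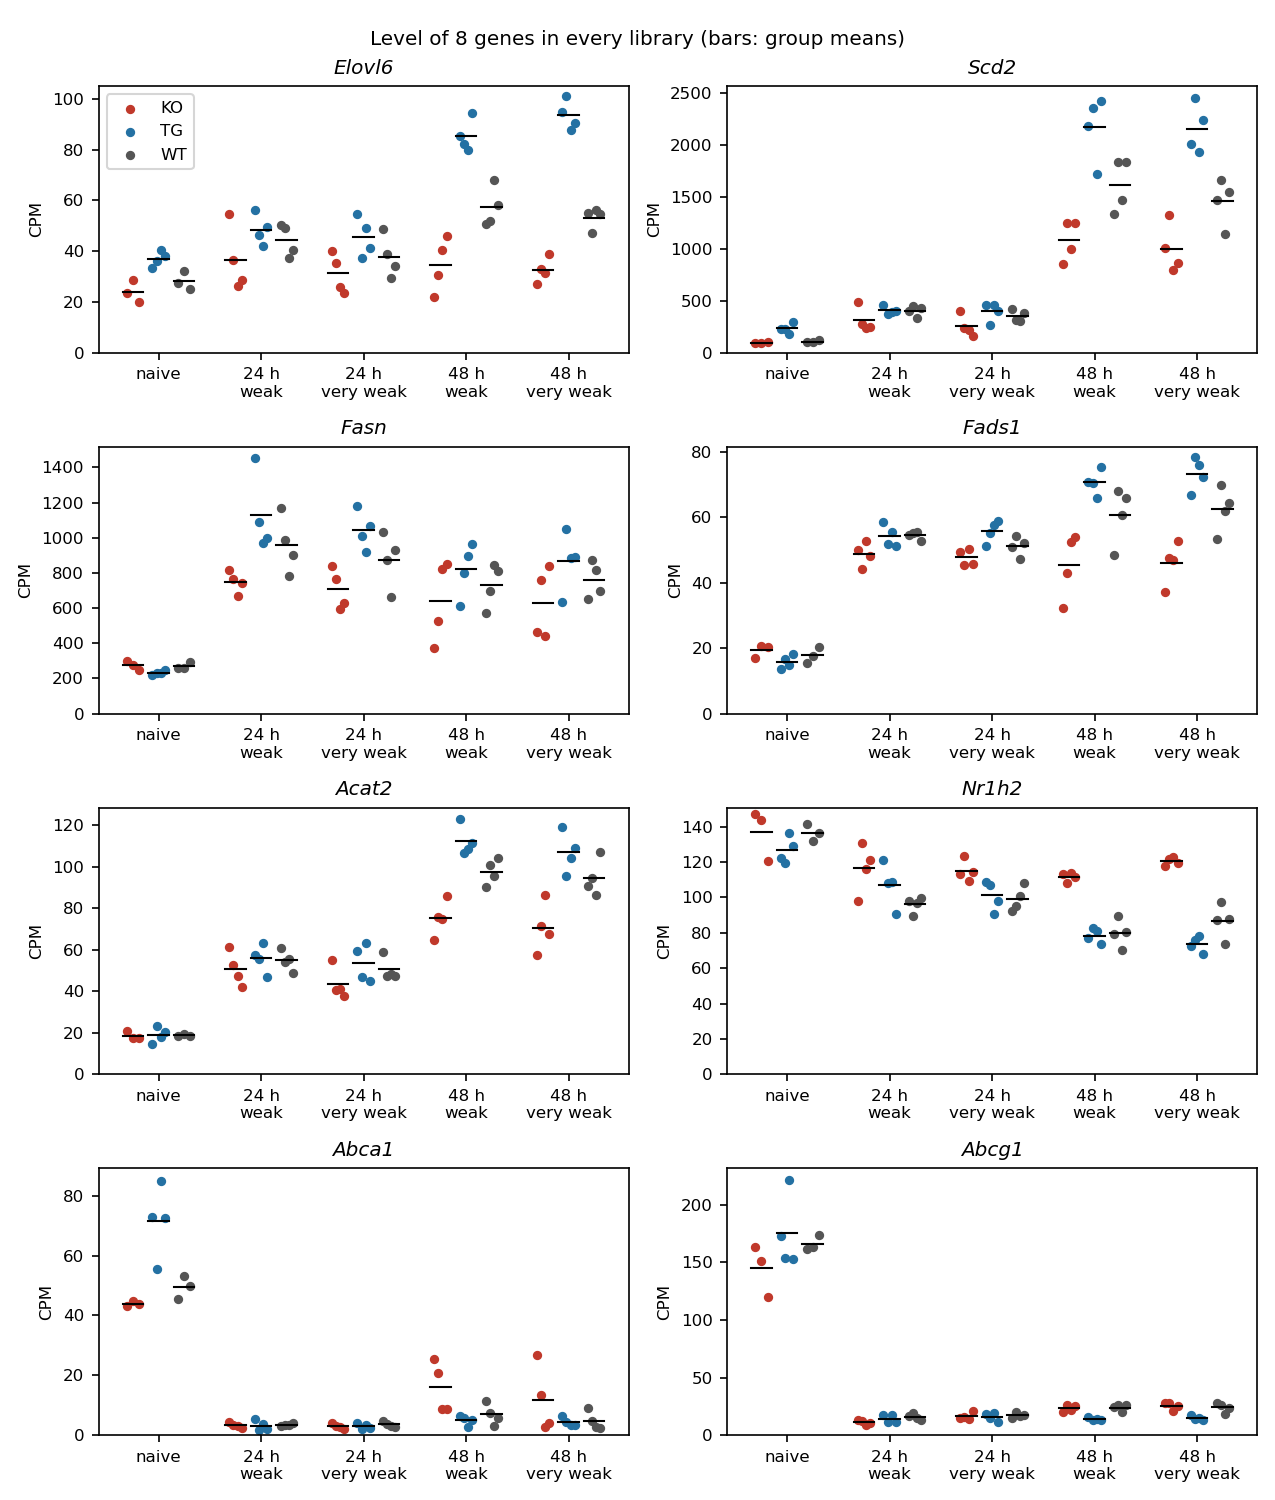
Level in CPM of single libraries in the 5 states, by genotype, for 8 genes of the genotype comparisons. Each point is 1 library and each bar a group mean; at 48 h the 3 genotypes do not overlap in Elovl6 under either stimulus, and at 24 h they do.

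Whether a genotype effect itself changed between states was tested directly, in the fit of single libraries and not of pools. Libraries of equal number thus counted as separate samples, although those of stimulated states deviated together. The TG effect on Scd2 was smaller under stimulation than in naive cells (difference of log2 fold changes -0.83 ± 0.24, adjusted p = 0.0293), and that on Sqle was higher under stimulation than in naive cells (0.65 ± 0.18, adjusted p = 0.0193; edgeR). These were 2 of the 35 genes, 1 in each direction, beside 6.18% of all genes. Both rest on few naive libraries: the Scd2 call was lost without TG naive library 1, 2 or 4 or any 1 WT naive library (adjusted p 0.051 to 0.117), and the Sqle call without TG naive library 1 or 3 or WT naive library 1 or 4 (0.0542 to 0.148). For the KO effect 0 members were called (edgeR; 4 at an unadjusted p under 0.05, 0 by DESeq2), beside 0.168% of all genes. The TG effect at 48 h minus that at 24 h passed for 1 gene, Abcg1 (-0.59 ± 0.16, adjusted p = 0.0321), beside 1.85% of all genes, and this call was lost without any 1 of 14 of the 32 libraries (adjusted p 0.0503 to 0.0716). For Elovl6 the same difference was 0.50 ± 0.18 (adjusted p = 0.164) for TG and -0.44 ± 0.18 (adjusted p = 0.338) for KO, so a larger effect at 48 h than at 24 h was not shown. The KO effect at 48 h minus that at 24 h passed for 0 members without a block. With the replicate number as a block it passed for Abca1 (1.41 ± 0.36, adjusted p = 0.0287 by edgeR).

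TG and KO pools, which both carry Cre, differed in more genes than either did from WT. Of the 35 genes 10 were higher and 9 lower in TG pools than in KO pools, beside 44.3% of all genes. Fatty acid enzymes were higher in 6 of 8 cases and lower in none (with the replicate number as a block 6 were higher and 1, Acly, was lower), and the 3 export and LXR genes were lower in all cases. Sterol enzymes split into 3 higher, 3 lower and 12 that did not pass. With the block 10 of the 35 were higher and 12 lower, beside 57% of all genes, and the added calls were Nsdhl, Srebf1 and Acly, all lower.

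Elovl6 was 2.01-fold higher in TG than in KO pools (adjusted p = 3.39e-07 by edgeR), the largest of the rises. In log2 fold change, TG over KO, it was followed by Scd2 (0.94 ± 0.11, adjusted p = 3.9e-05) and Scd1 (0.79 ± 0.29, adjusted p = 0.0455) by edgeR. Next came Insig2 (0.54), Fasn (0.50), Acat2 (0.44), Fads1 (0.43) and Hsd17b7 (0.36), which acts with Msmo1 and Nsdhl in sterol demethylation. Among the lower genes Abca1 differed most (-1.14 ± 0.40, adjusted p = 0.0368), followed by Insig1 (-0.50), Sc5d (-0.49), a sterol desaturase, Abcg1 (-0.38), Nr1h2 (-0.37) and Stard4 (-0.35). Sc5d had 68.5, 51.1, 72.6 and 70.9 CPM in TG pools, against 103, 90.2, 87.4 and 89.5 CPM in KO pools, and Insig1 had 131, 105, 117 and 120 CPM in TG pools, against 196, 154, 165 and 155 CPM in KO pools. Neither pair overlapped. The 2 INSIG paralogues thus differed in opposite directions, with Insig2 at 22.8, 24.9, 21 and 26 CPM in TG pools, against 16.5, 19.7, 13.6 and 15.3 CPM in KO pools. Of the 19 calls 14 held without any 1 pool. The call of Abca1 was lost without KO pool 1 or 2 or TG pool 2, 3 or 4 (adjusted p 0.0814 to 0.132), that of Scd1 without KO pool 3 or 4 or TG pool 1, 2 or 4 (0.0665 to 0.114) and that of Abcg1 without KO or TG pool 2 or 4 (0.053 to 0.0604). Those of Hsd17b7 and Dhcr7 were lost without any of 6 pools each (0.0525 to 0.112 and 0.0638 to 0.134).

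Summed by time, 4 of the 35 genes were higher and 7 lower in TG than in KO cells at 24 h, beside 36.5% of all genes, and 6 were higher and 6 lower at 48 h, beside 37.7%. With the block these became 8 higher and 9 lower at 24 h, beside 51.4%, and 9 higher and 8 lower at 48 h, beside 51.8%. Fasn was called higher at 24 h (log2 0.58 ± 0.13, adjusted p = 0.00326) and was at 0.40 ± 0.19 at 48 h (adjusted p = 0.113). Elovl6 was at 0.47 ± 0.18 at 24 h (adjusted p = 0.0509) and called at 48 h with 1.41 ± 0.14 (adjusted p = 2.25e-05). Stard4 was called lower at 24 h (-0.69 ± 0.13), Abca1, Abcg1 and Nr1h2 at 48 h (-1.58 ± 0.50, -0.76 ± 0.12 and -0.61 ± 0.08). The Abca1 call at 48 h was lost without KO pool 1 or 2 or TG pool 2, 3 or 4 (adjusted p 0.051 to 0.0832). Insig1, Sc5d and Ebp were lower at both times, and Insig2 and Fads1 (log2 0.18, adjusted p = 0.0276, and 0.65, adjusted p = 0.00196; edgeR) were higher at both. The Fads1 call at 24 h was lost without KO pool 2 or TG pool 1 or 3 (adjusted p 0.0527 to 0.0774), and the Ebp call at 48 h without KO pool 3 or 4 or TG pool 2 or 4 (0.0855 to 0.106). The change between the times was not tested in these pools.

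Ordered by pool means, 10 of the 35 genes ran KO, WT, TG from low to high, 10 ran the other way, and in 15 WT lay at an end. Over all genes these shares were 35.5%, 38.4% and 26.1%. Pools did not overlap for 10 genes between KO and WT (12.3% of all genes), 8 between TG and WT (23.4%) and 14 between TG and KO (36.9%).

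Intronic counts of the pools told fewer genotypes apart. No member was called between KO and WT pools (edgeR; 4 at an unadjusted p under 0.05, 0 by DESeq2), beside 0.11% of all genes, or between TG and WT pools (edgeR; 5 at an unadjusted p under 0.05, 1 by DESeq2), beside 2.06%; with the block each comparison had 1 higher and 2 lower, beside 2.25% for KO and 8.74% for TG pools. Between TG and KO pools 3 were higher and 5 lower, beside 16.7%, and with the block 5 were higher and 10 lower, beside 32.2%. Elovl6 introns were higher by log2 0.97 ± 0.15 (adjusted p = 9.14e-04), a 1.96-fold difference beside 2.01-fold in its exonic counts. Scd1 (0.85) and Scd2 (0.42) were higher too, and Sc5d (-0.71), Idi1 (-0.70), Insig2 (-0.58), Insig1 (-0.57) and Hsd17b7 (-0.49) were lower.

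The TG over KO change of exonic counts minus that of intronic counts was above 0 in 4 genes and below 0 in none (edgeR), beside 4.43% of all genes in either direction. It was 1.13 ± 0.23 for Insig2 (adjusted p = 0.00398), 0.86 ± 0.17 for Hsd17b7 (adjusted p = 0.00413), 0.75 ± 0.21 for Idi1 (adjusted p = 0.0372) and 0.59 ± 0.15 for Fads1 (adjusted p = 0.0264). For Insig2 and Hsd17b7 exonic counts were higher and intronic counts lower in TG pools. For Elovl6 (0.04 ± 0.17, adjusted p = 0.959), Sc5d (0.23 ± 0.15, adjusted p = 0.497) and Insig1 (0.08 ± 0.16, adjusted p = 0.889) no difference was detected. The Insig2 and Hsd17b7 calls held without any 1 pool. That of Idi1 was lost without any 1 of the 8 pools (adjusted p 0.051 to 0.11), and that of Fads1 without KO pool 1 or 4 or TG pool 1, 2 or 3 (0.0521 to 0.0921). These fits took the exonic and intronic counts of a pool as separate samples. With each single pool as a block, which pairs its exonic and intronic counts, 6 genes were above 0 and 1, Abca1, was below, beside 10.1% of all genes.

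**Figure D5:**
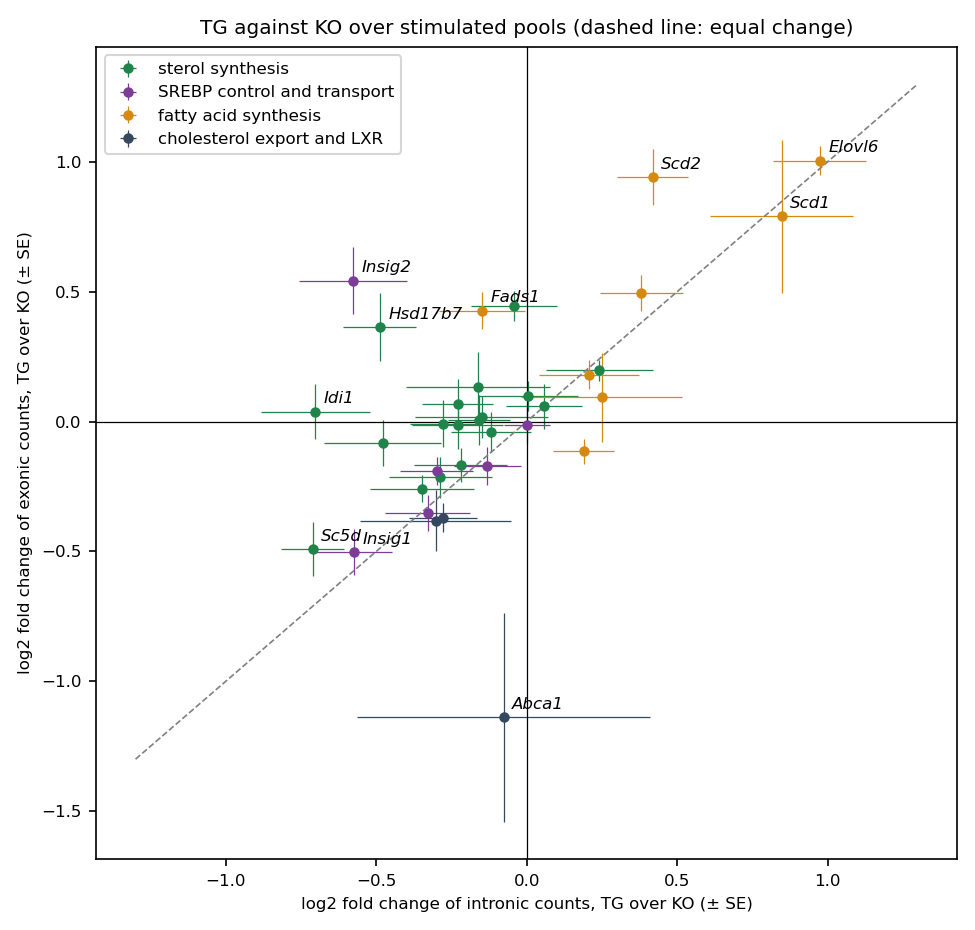
Log2 fold change of TG over KO pools in exonic counts (y axis) and in intronic counts (x axis) for the 35 genes, with SE as bars and the diagonal of equal change. Elovl6 lies near the diagonal; Insig2, Hsd17b7 and Idi1 lie above it with intronic values below 0.

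Genes of neighbouring pathways were read for context, in 3 lists. Among 20 further genes of sterol and isoprenoid metabolism 9 rose and 7 fell 48 h after the weak stimulus in WT cells, beside 78.2% of all genes, with Tmem97, a sterol-responsive membrane protein, at log2 4.40 and Mylip, a ubiquitin ligase induced by LXR, at -5.08. Among 20 further fatty acid genes, 19 of them tested here, 14 rose and 4 fell, with Fabp5, a fatty acid carrier, at 4.68 and Acss2, which makes acetyl-CoA from acetate, at -2.12. Among 17 genes of fatty acid oxidation 9 rose and 1 fell. Between TG and KO pools the 3 lists had 2 higher and 4 lower, 5 and 5, and 2 and 5, in the same order, beside 44.3% of all genes. In TG against WT pools the 3 lists had 1 higher and 1 lower, 0 and 3, and 0 and 1, beside 13.6%. In KO against WT pools they had 0 and 0, 1 and 0, and 2 and 0, beside 5.93%. The lower fatty acid genes in TG pools were Acss2 (log2 -0.46), Lpin1 (-0.49) and Elovl5 (-0.19, adjusted p = 0.0386 by edgeR). Elovl5, another elongase, was also the higher one in KO pools (0.28, adjusted p = 0.0129 by edgeR), opposite to Elovl6 in both. Lipa, the lysosomal lipase that frees cholesterol from its esters, was lower in TG than in WT pools (log2 -0.41, adjusted p = 0.00385 by edgeR). Acadm, an enzyme of fatty acid oxidation, was higher in KO than in WT pools (0.51, adjusted p = 7.12e-04 by edgeR).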

How the data were processed

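RNA of 58 libraries was measured as poly(A) RNA with a stranded single-end TruSeq protocol, per the labels. The authors deposited whole-number counts of reads per gene, one set over exons and one over introns, without normalization. Reads had been mapped to mm10, and the tools listed are STAR 2.5.2a, FastQC 0.11.5, R 3.5 and edgeR, per the submitters' processing notes. Which program counted the reads, with which annotation and whether by strand, is not given in the sources used here. Totals were 19.2 to 20.8 M counts per library (over introns 2.74 to 9.11 M), and levels are CPM. Counts carry no molecular identifiers.

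Tests used the quasi-likelihood F test of edgeR 4.0.16 in R 4.3.3. Normalization was by TMM (factors 0.939 to 1.06), low counts were removed by filterByExpr, and a single model with a coefficient for each group was fitted to 13709 genes (43 residual degrees of freedom). Genotype effects over stimulated states used 4 pools per genotype (13567 genes, 9 residual degrees of freedom). Exon minus intron effects came from 1 joint fit of exonic and intronic counts over 11659 genes. Calls needed a Benjamini-Hochberg adjusted p under 0.05 over all genes tested, and SEs were derived from the F statistic. Fits were tested on simulated data with known changes. Alternatives were RLE factors, no low-count filter, DESeq2 1.42.0, the replicate number as a block (for exon minus intron, the single pool), leaving out each library or pool, 16 libraries per genotype, and splits by replicate numbers.

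The labels do not say what a replicate number stands for, nor that replicates came from separate mice, so p-values measure the spread between these samples. In the pools, all 12 pairs of equal number had correlated deviations from their genotype's mean (r 0.249 to 0.655, median 0.416; pairs of other numbers had a median of -0.14), which meets the criterion for pairing (every r over 0.1). So did each comparison of KO or TG with WT libraries of the same stimulated state, but not those of naive cells. The 2 stimulus strengths in WT cells also met it (r 0.268 to 0.398 at 24 h and 0.277 to 0.631 at 48 h). Results are from the fit without the block unless the block is named, and counts with it are given where they differ by over 1.5 times or a call changes. The members and lists, with the rule for named genes (all 35, by role), were chosen with earlier results of these data known.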

Additional observations from a re-analysis of the deposited data

Results flagged for a closer look

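Of 118 sets of 4 libraries or pools tested, 6 held a value far from the other 3, about as many as the 1 in 20 that chance gives. The 35 genes took 0.244% of counts in TG naive library 4 and 0.859% in library 4 of TG cells 48 h after the weak stimulus, each above the other 3 of its group. Cyp51 stood apart at 342 CPM in WT pool 2, Fads2 at 34.2 CPM in WT pool 3, Scap at 120 CPM in KO pool 1 and Abca1 at 5.50 CPM in TG pool 1.

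Genotype effects that differed between states were those of TG over WT in Sqle (stimulated minus naive, log2 0.65), Scd2 (stimulated minus naive, -0.83) and Abcg1 (48 h minus 24 h, -0.59), each by edgeR's test of the difference itself.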

How the results depend on the processing

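Of the called results followed, 231 in all, none reversed. For WT stimulation 127 of 130 were called under every alternative; the exceptions were Dhcr7 at 24 h under both stimuli and Srebf2 at 24 h under the very weak one. RLE factors moved the median of all genes by -0.12 at 24 h after the weak stimulus.

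With the replicate number as a block, members called went to 10 (KO pools, from 6), 14 (TG pools, from 5), 1 (KO, weak, 24 h, from 0), 5 (KO, weak, 48 h, from 3), 3 (TG, very weak, 24 h, from 0), 5 (TG, very weak, 48 h, from 2), 2 (TG, weak, 24 h, from 1), 4 (TG effect, stimulated minus naive, from 2), 3 and 3 (introns of KO and TG pools against WT, from 0) and 15 (introns of TG against KO pools, from 8). For exon minus intron, where the block was the single pool, they went to 7 from 4. The block moved no other count of calls named here by over 1.5 times, apart from TG against KO at 24 h (17, from 11) and the KO effect of 48 h minus 24 h (1, from 0). For single libraries the number is a pairing seen in the data, not stated by the labels. With the 2 dose groups alone and the block, chosen after seeing the data, 2 were called at 24 h and 3 at 48 h, from 0.

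For TG pools without the low-count filter 3 were called, by DESeq2 8, and with 16 libraries per genotype 12. DESeq2 called 1 for KO (weak, 24 h), 4 for TG (very weak, 48 h) and 1 for introns of TG pools. Within replicates 1 and 2, KO pools had 0 calls and TG pools 1. Within replicates 3 and 4, KO pools had 1, TG pools 1, and TG against KO 11. The cause was not tested, and these splits hold fewer samples.

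Leaving out 1 library or pool at a time gave 0 to 1 calls for KO at 24 h under either stimulus, 1 to 4 for KO (weak, 48 h) and 1 to 5 (very weak, 48 h); the lowest came without KO library 1 in both. It gave 1 to 3 for TG naive, 0 to 1 for TG at 24 h under either stimulus, 1 to 2 (weak, 48 h) and 2 to 4 (very weak, 48 h), 0 to 2 for the TG effect of stimulated minus naive, 4 to 6 for KO pools, 1 to 4 for TG pools, 14 to 18 for TG against KO pools, 4 to 8 for their introns, 0 to 1 for introns of TG pools, and 2 to 3 for exon minus intron. Without every single pool, 4 of 6 KO, 1 of 5 TG and 14 of 19 TG against KO calls held. The low-count filter and DESeq2 alternatives were not run for exon minus intron. A sterol element longer by 1 base was found in 0 of 27 windows (0.27% of all genes). With 4 samples per group, small differences may be missed.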
